A study of Mus musculus with 36 samples.

Results

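Expression of 10 genes of the biliary epithelium and of liver progenitors was examined in the livers of 36 mice. The genes were Epcam, Krt7, Krt19, Krt8, Krt18, Sox9, Sox4, Spp1, Notch2 and Jag1, chosen by symbol, and each of the 10 was among the 21889 symbols measured. RNA-Seq of polyadenylated RNA was performed on livers of male C57BL/6 mice (C57BL/6J in the study's methods) drawn from several litters, with 3 mice at each of 12 ages and 1 liver per library. The ages were GD17.5 (before birth, given as day -2 in the labels), Day 0 (at birth, before suckling), Days 1, 3, 5, 10, 15 and 20 (suckling) and Days 25, 30, 45 and 60 (weaning fell between Day 20 and Day 25). The labels give no treatment or altered gene, age is the difference between the groups, and the 3 mice of an age are separate animals. Expression is given as FPKM (fragments mapped per kilobase of transcript, scaled to library size), a level per length, as mean ± SD of 3 mice unless single mice are given.

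Bile ducts arise during fetal life from hepatoblasts, the common precursors of hepatocytes and cholangiocytes, in the ductal plate around the portal veins. Jag1 is a Notch ligand expressed by the portal mesenchyme and Notch2 is the receptor through which it acts on hepatoblasts, and the SOX factors Sox9 and Sox4 act downstream in the shaping of the ducts. Krt7 and Krt19 are keratins of the duct epithelium, whereas Krt8 and Krt18 form the keratin filaments of hepatocytes and are made in duct cells as well. Epcam is an adhesion molecule of duct and progenitor cells, and Spp1 (osteopontin) is a secreted phosphoprotein made by duct cells and by several other cell types.

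In the NCBI37/mm9 genome with the GENCODE M1 annotation, 3 of the keratin genes lie on chromosome 15: Krt7 at chr15:101241474-101260744, Krt8 at chr15:101827142-101834773 on the reverse strand, and Krt18 at chr15:101858647-101862457 on the forward strand. Krt8 and Krt18 point away from each other with 23.9 kb between their starts. Krt19 lies on chromosome 11 (chr11:100002124-100009979, reverse strand), as does Sox9 (chr11:112643538-112649074). Epcam is at chr17:88035319-88050446, Spp1 at chr5:104864137-104870069, Notch2 at chr3:97817461-97954290 and Jag1 at chr2:136907192-136942380 (reverse strand). Sox4 is at chr13:29040788-29045582 (reverse strand), and a second entry of the same symbol lies inside it, so that its reads may have been divided between both and its level is uncertain.

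Promoter windows of 300 bases, from 250 bases before the start of the gene to 50 after it, were matched for 8 of the 10 genes in the RefSeq table for GRCm38.p6. Those of Krt8 and Krt18 are shown because the ratio of this pair changed with age, and those of Krt7 and Spp1 because these genes had some of the largest differences from Day 60. Each is written 5′ to 3′ on the strand of its gene. Capitals mark matches on either strand to any of 5 motifs. These were the TATA box, searched as TATAAA, and the GC box, searched as GGGCGG. The core of the site of RBPJ, the DNA-binding partner of Notch, was searched as TGGGAA and the SOX core as ATTGTT. The AP-1 site was searched as TGANTCA, where N is any base. The windows are chr15:102004293-102004592 for Krt8, chr15:102027966-102028265 for Krt18, chr15:101412153-101412452 for Krt7 and chr5:104434861-104435160 for Spp1 in GRCm38.p6, whose coordinates differ from those of NCBI37/mm9 above.
Krt8: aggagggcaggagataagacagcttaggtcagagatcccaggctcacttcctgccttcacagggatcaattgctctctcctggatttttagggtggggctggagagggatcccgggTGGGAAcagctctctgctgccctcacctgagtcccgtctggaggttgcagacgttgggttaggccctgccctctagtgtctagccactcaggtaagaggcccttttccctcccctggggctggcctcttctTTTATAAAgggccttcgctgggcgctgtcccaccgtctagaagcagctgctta
Krt18: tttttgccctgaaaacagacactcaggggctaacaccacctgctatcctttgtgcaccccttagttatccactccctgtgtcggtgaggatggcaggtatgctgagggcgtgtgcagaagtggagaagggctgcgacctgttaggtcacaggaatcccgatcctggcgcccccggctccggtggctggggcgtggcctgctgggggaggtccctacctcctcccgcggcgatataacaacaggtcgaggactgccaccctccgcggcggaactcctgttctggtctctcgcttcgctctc
Krt7: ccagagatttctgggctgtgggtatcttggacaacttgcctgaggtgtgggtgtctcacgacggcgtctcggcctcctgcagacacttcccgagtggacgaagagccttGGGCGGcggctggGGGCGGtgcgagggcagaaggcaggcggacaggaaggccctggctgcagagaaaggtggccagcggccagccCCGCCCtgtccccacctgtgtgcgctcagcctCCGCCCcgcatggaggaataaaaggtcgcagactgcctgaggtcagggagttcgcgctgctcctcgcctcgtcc
Spp1: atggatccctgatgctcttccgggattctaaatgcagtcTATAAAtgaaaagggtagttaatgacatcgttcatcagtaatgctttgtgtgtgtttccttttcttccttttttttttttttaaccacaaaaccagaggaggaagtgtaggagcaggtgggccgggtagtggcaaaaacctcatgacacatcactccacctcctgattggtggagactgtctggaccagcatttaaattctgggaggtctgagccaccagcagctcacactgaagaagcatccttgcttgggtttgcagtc

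The Krt8 window held TATAAA on both strands in 1 overlapping run across the start and 1 match to TGGGAA, first base at position -134. In the Krt7 window 4 matches to GGGCGG were found, and in the Spp1 window 1 match to TATAAA, at position -211. The Krt18 window held none of the 5 motifs, and among the other matched genes Notch2 had 7 matches to GGGCGG, Epcam 1, Sox4 1 to TGGGAA and Jag1 none. Among all 32851 promoter windows of the table, 13.6% held TATAAA, 35.7% GGGCGG, 25.6% TGGGAA, 7.81% TGANTCA and 10.7% ATTGTT. A match describes letters in the window and is not a measured binding site.

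Many libraries held RNA of genes of other organs, and 5 that stood apart most are named before the results. At GD17.5, the libraries of mice 2 and 3 had the gut transcription factor Cdx1 at 0.323 and 0.776 FPKM, and the library of mouse 1 had it listed at 0. The gut lectin Lgals4 was at 10.0 and 11.9 FPKM in these mice against 0.287 in mouse 1. In the library of mouse 1 of Day 0, the 8 skeletal muscle markers summed to 1062 FPKM, and the keratins of squamous epithelium Krt4 and Krt13 were at 18.6 and 12.2 FPKM. Kidney genes were present in the library of mouse 2 of Day 1, where the 10 markers summed to 76.2 FPKM (Slc34a1 29.4, Cdh16 15.6 and Aqp2 14.9 FPKM), against 0.113 and 4.30 FPKM in mice 1 and 3. In the library of mouse 1 of Day 60, the 8 pancreatic acinar markers summed to 22876 FPKM against 0.378 and 1.84 in the other mice. Pancreatic acinar markers above 1000 FPKM were also present in 8 further libraries between Day 0 and Day 45, and the 3 islet markers summed to between 0 and 138 FPKM per library, with the highest value in mouse 3 of Day 15, one of these 8. A further 8 libraries, all between Day 0 and Day 15, had acinar sums from 193 to 920 FPKM. Outside the 5 libraries and the 8 above 1000 FPKM, no library from Day 20 on was above 34.7 FPKM, so that this RNA goes with age there. Mouse 1 of Day 10, one of the 13, had a muscle sum of 71.4 FPKM. The libraries kept are thus not free of such RNA. Many of the values below are given also without the 5 libraries and without the 13, both chosen after the values had been seen.

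**Figure D1:**
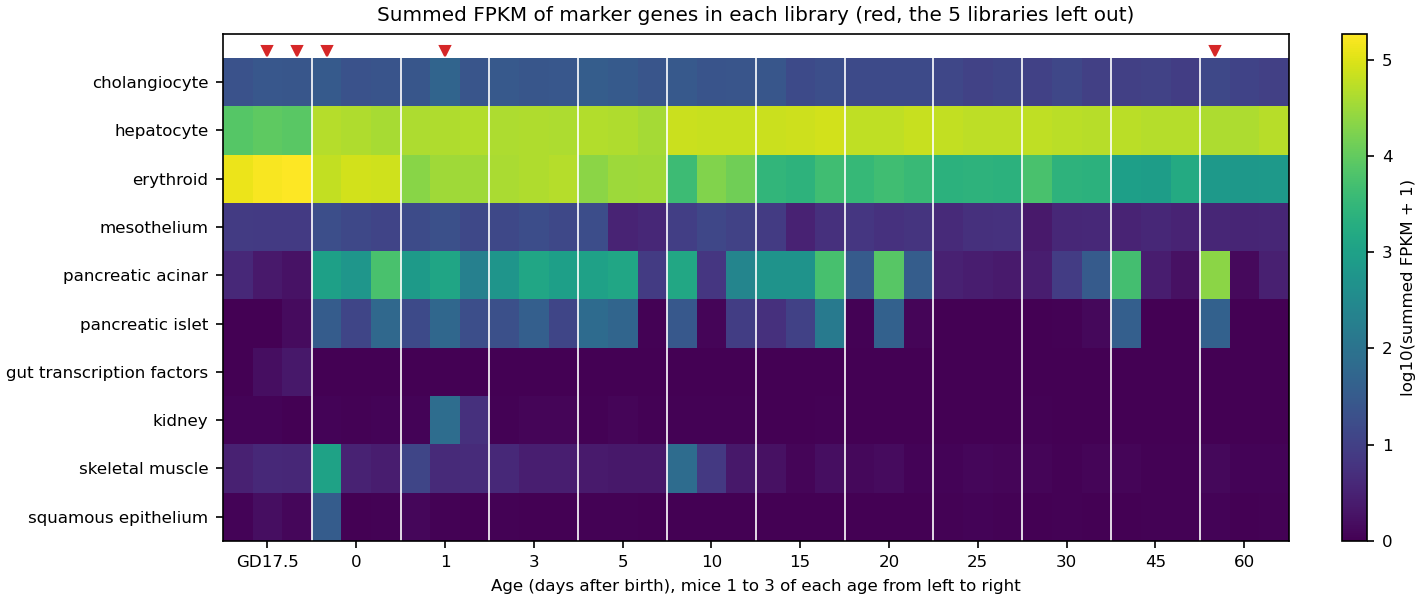
Summed FPKM of marker genes of the liver's own cells and of other organs in each of the 36 libraries (colour, log10 of the sum + 1; columns, mice 1 to 3 of each age; rows, marker lists). Red triangles mark the 5 libraries set apart, such as the Day 1 library with 76.2 FPKM of kidney markers and the Day 60 library with 22876 FPKM of pancreatic acinar markers.

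The defining markers of the labelled tissue were present: the 8 hepatocyte markers summed to between 7715 and 9261 FPKM at GD17.5 and to between 35733 and 79239 FPKM at the later ages. The 8 cholangiocyte markers, which include 5 of the 10 genes, summed to 23.8 ± 3.13 FPKM before birth. By Day 5 the sum was 29.1 ± 5.61 FPKM, against 10.8 ± 2.07 FPKM in the mice of Day 60. Cftr, the chloride channel of duct cells and one of these markers, was at most 0.0483 FPKM in any library. The composition of the liver changed over the same ages: the 9 erythroid markers had sums of 127398 to 185332 FPKM in the GD17.5 livers, of 22613 to 32137 FPKM by Day 5 and of 651 to 716 FPKM in the Day 60 livers. The part of these changes in the results below was not tested, and in whole liver fewer cells of a type and less RNA per cell cannot be told apart.

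Of the 10 genes, 8 reached a mean of 1 FPKM in at least one age and were tested among 11149 genes with limma on log2(FPKM + 1). Sox9 and Jag1 stayed below that level at every age, and Epcam passed it at 1 of the 12 ages (Day 1) and Sox4 at 3, so that these genes passed through ages at which they were high. In at least one age, 7 of the 8 genes differed from Day 60, beside 90.7% of all genes tested, and Notch2 did not. In the comparison of GD17.5 to Day 5 with Days 10 to 60, 6 of 8 were higher early (69.6% of all genes) and 0 were lower (15.8% of all genes). Under scaling to a common upper quartile 4 were higher and 1 lower, where all genes split into 4928 higher and 3766 lower in place of 7762 and 1763. The median early minus late difference was 0.45 (log2) over the 8 genes and 0.46 over all genes tested. Relative to the latter the single genes ranged from 0.54 (Krt19) to -0.54 (Krt8). Without the 5 libraries and without the 13, which both leave 1 mouse at GD17.5, the median of all genes was 0.46 and 0.48. The single genes then ranged from 0.84 and 0.71 (Krt19) to -0.17 and -0.26 (Krt8), not taken relative to that median. The genes tested were kept there as chosen over all 36 mice.

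The differences from Day 60 were found at the ages up to Day 20. Before birth 6 of the 8 genes differed (75.1% of all genes did). The number was 3 on Day 0 (63.9%), 7 on Day 1 (65.0%), 4 on Day 3 (66.0%) and 7 on Day 5 (65.4%). It was 5 on Day 10 (46.0%), 1 on Day 15 (27.4%) and 2 on Day 20 (15.9%). On Days 25, 30 and 45 limma called none of the 8, where it called 7.42%, 3.56% and 0.233% of all genes. Of the 35 differences, 29 were higher and 6 lower than at Day 60, and the lower ones were Krt8, Krt18 and Spp1 at GD17.5, Krt8 at Day 1, and Krt8 and Krt18 at Day 20. Without the 5 libraries, Krt19 and Spp1 at GD17.5 and Krt18 at Day 20 lost their calls, and other calls were gained. Without the 13, Krt8 at Days 5 and 20, Sox4 at Day 0 and Spp1 at Day 5 lost theirs as well. Upper quartile scaling removed the calls of Epcam, Krt7, Krt8 and Spp1 at Day 5 and of Sox4 at Day 0. It also removed those of Krt19 at GD17.5 and Day 10 and of Krt18 at Days 3 and 20.

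**Figure D2:**
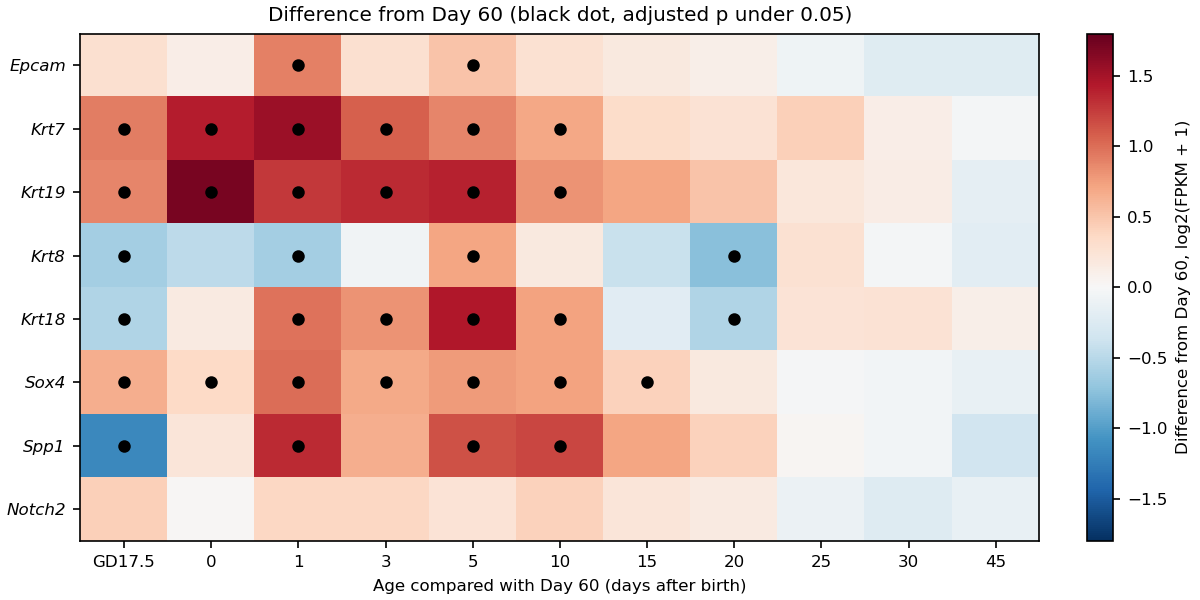
Difference of each age (columns) from Day 60 for the 8 genes tested (rows), in log2(FPKM + 1) units, red for higher and blue for lower. Black dots mark the 35 differences with an adjusted p under 0.05, of which the largest rise was Krt19 at Day 0 (1.71) and the lowest value Spp1 at GD17.5 (-1.15).

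Between neighbouring ages 12 changes were found. From GD17.5 to Day 0 3 of 8 genes rose (54.6% of all genes changed), from Day 0 to Day 1 4 rose (31.6%), and from Day 3 to Day 5 1 rose (3.20%). One gene fell from Day 5 to Day 10 (36.3%) and 1 from Day 10 to Day 15 (12.0%), in both cases Krt18. From Day 20 to Day 25, the interval that contains weaning, 2 of 8 rose (7.19%), which were Krt8 and Krt18. Of these 12, 10 were called without the 5 libraries and 4 without the 13 libraries (Epcam and Krt18 to Day 1, Krt18 to Day 15 and Krt8 to Day 25).

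The duct keratins Krt19 and Krt7 were the 2 genes of the set whose 5 early age means all lay above their 7 late ones. How many of all genes tested did so was not counted, so that this is not shown to be particular to them. In the 3 mice of GD17.5 Krt19 was 2.27, 5.03 and 5.84 FPKM, in those of Day 0 11.5, 6.31 and 7.43 FPKM, and in those of Day 5 7.42, 7.75 and 4.24 FPKM. The mice of Day 10 had 3.39, 4.203 and 4.203 FPKM and those of Day 45 1.17, 1.94 and 1.49 FPKM. The first mouse of Day 60, whose library carried pancreatic genes, had 3.604 FPKM of Krt19 and the others 1.22 and 1.13 FPKM. Every mouse of Days 0 to 5 was therefore above every mouse of Day 60, while at GD17.5 mouse 1 lay within the range of Day 60. The highest age mean was 8.40 ± 2.71 FPKM (Day 0) and the lowest 1.53 ± 0.387 FPKM (Day 45), and in the order of the 12 means no pair of neighbours was free of overlap between mice.

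Relative to Day 60, Krt19 was higher by 0.88 ± 0.30 (log2, SE, adjusted p = 0.0109) at GD17.5, by 1.71 ± 0.30 (adjusted p = 1.5e-05) at Day 0 and by 0.81 ± 0.30 (adjusted p = 0.0286) at Day 10, and it rose from GD17.5 to Day 0 by 0.84 ± 0.30 (adjusted p = 0.0217). The early minus late difference was 1.00 ± 0.13 (adjusted p = 2.4e-08), and 0.54 above the median of all genes. It was 0.84 without the 5 libraries, 0.71 without the 13 and 0.55 when the upper quartile of all libraries was made equal, each with an adjusted p under 0.05. The GD17.5 difference did not pass without the 5 libraries (0.59, adjusted p = 0.158), under upper quartile scaling (0.44, adjusted p = 0.232), or when mouse 3 of GD17.5 or mouse 2 or 3 of Day 60 was left out (0.67 to 0.71, adjusted p up to 0.0740). The rise to Day 0 did not pass without mouse 1 of GD17.5 (0.51, adjusted p = 0.187), without mouse 1 of Day 0 (0.61, adjusted p = 0.125) or without the 13 libraries (1.16, adjusted p = 0.0534). The Day 10 difference did not pass without mouse 2 or mouse 3 of Day 60 (0.65 and 0.62, adjusted p = 0.131 and 0.143) or of Day 10 (0.77 and 0.77, adjusted p = 0.0736 and 0.0709), nor under upper quartile scaling (0.71, adjusted p = 0.0729).

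Krt7, the type II partner of Krt19 in duct cells, had 1.63, 3.10 and 2.25 FPKM in the mice of GD17.5, and 4.84, 2.88 and 3.26 FPKM in those of Day 0. The mice of Day 1 had 2.43, 8.59 and 2.84 FPKM, the second being the one with kidney genes. At Day 10 the values were 1.45, 1.94 and 1.97 FPKM, and at Day 60 1.00, 0.722 and 0.477 FPKM. From GD17.5 to Day 10 all mice were above all mice of Day 60. Krt7 was higher than at Day 60 by 1.54 ± 0.25 (adjusted p = 5.2e-06) at Day 1, and by 1.19 (adjusted p = 2.6e-05) without the 5 libraries. The early minus late difference was 0.91 ± 0.11 (adjusted p = 4.5e-09), with 0.74 and 0.63 without the 5 and the 13 libraries and 0.56 under upper quartile scaling.

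**Figure D3:**
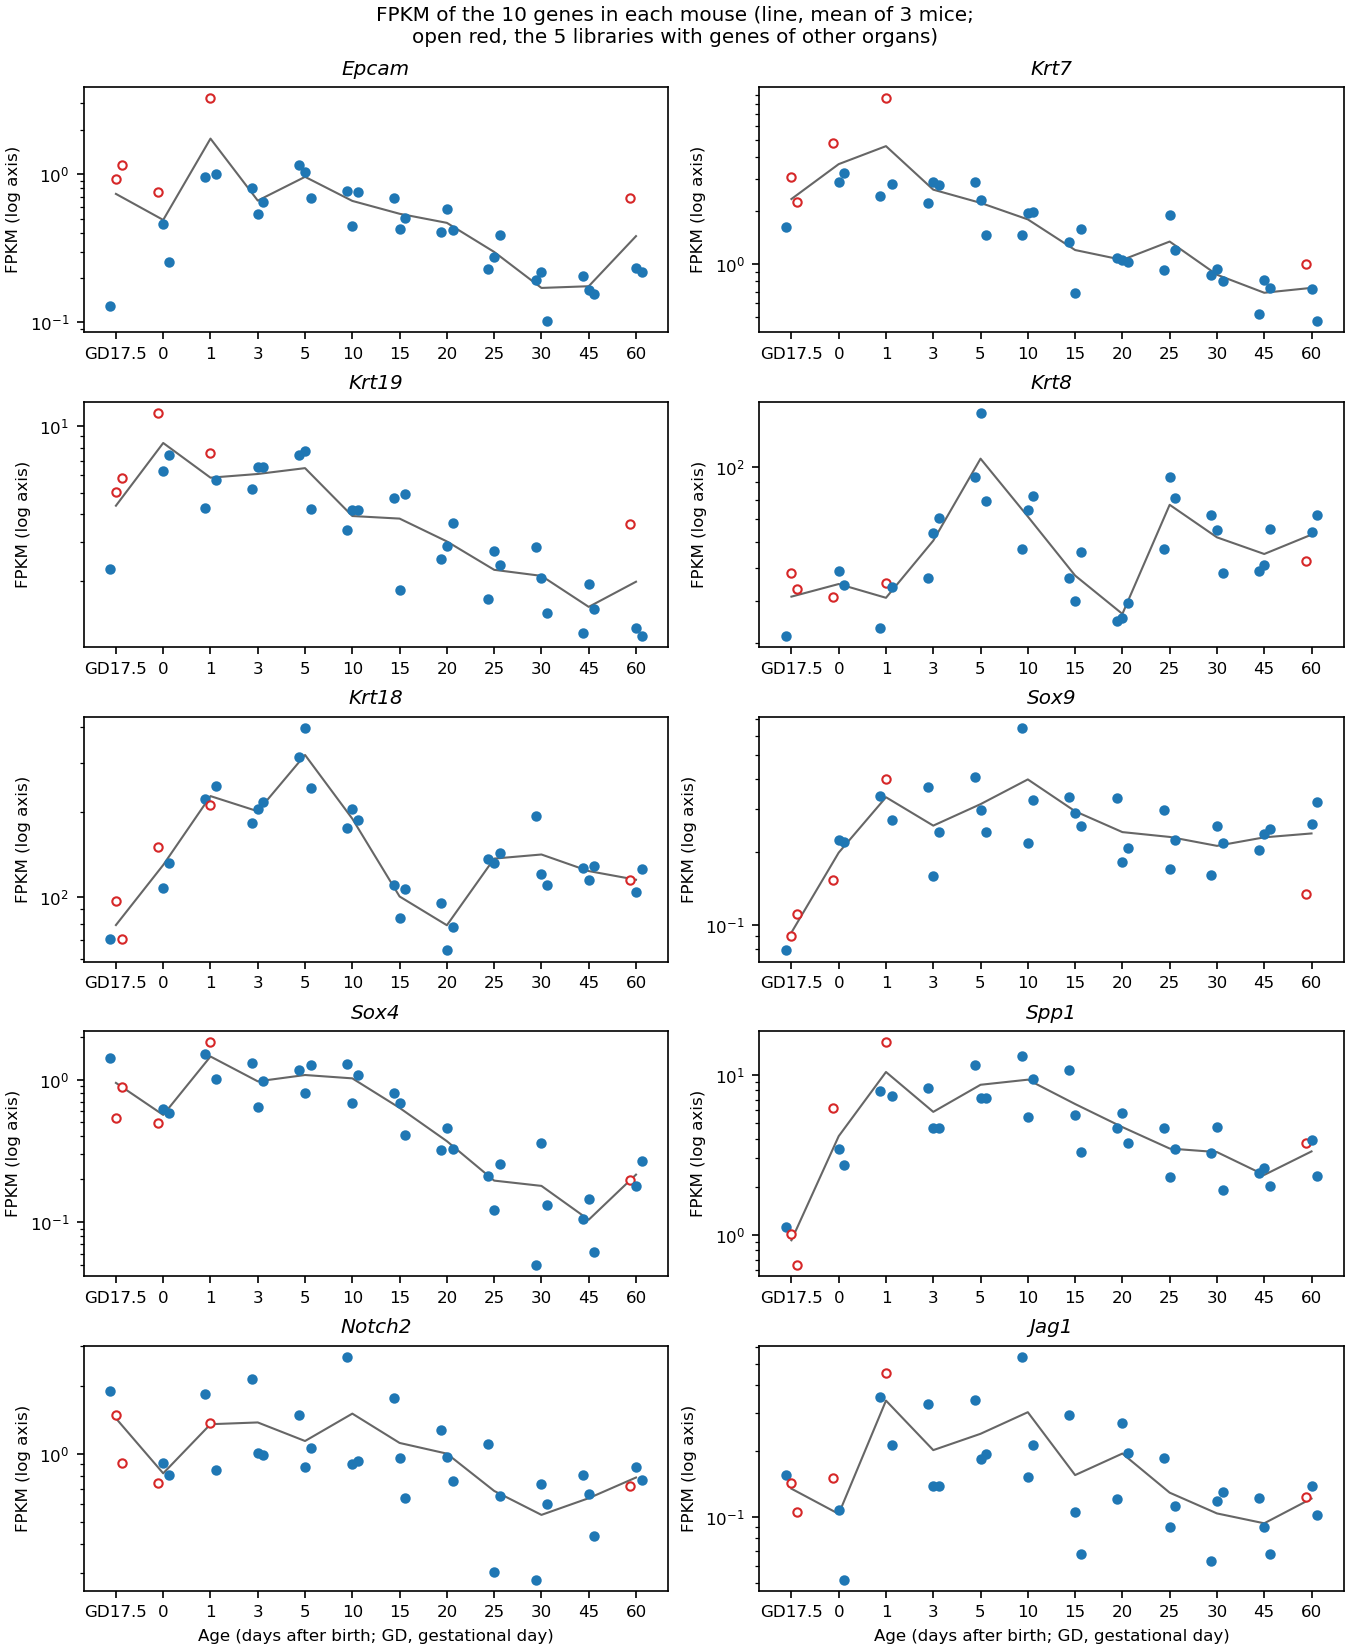
FPKM of each of the 10 genes (log axis) at the 12 ages, with 1 point per mouse and a line through the means of 3 mice. Open red points are the 5 libraries with genes of other organs. That of Day 1 holds the highest value of its age for every gene but Krt18 and Notch2 (Epcam 3.25, Krt7 8.59 and Spp1 15.98 FPKM). That of Day 0 holds the highest Krt19 value of its age (11.5 FPKM).

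Krt8 and Krt18 were the most abundant of the 10 genes, with medians over the 36 mice of 51.8 and 130 FPKM, and followed another course. Krt18 had 70.4, 96.4 and 70.6 FPKM in the mice of GD17.5 and 223, 212 and 248 FPKM at Day 1. It was highest at Day 5, with 315, 399 and 243 FPKM, and lowest at Day 20, with 94.8, 64.3 and 78.0 FPKM. At Day 25 the mice had 136, 131 and 142 FPKM and at Day 60 115, 104 and 125 FPKM. The ranges of Days 1, 3, 5, 10 and 25 lay wholly above that of Day 60, and those of GD17.5 and Day 20 wholly below it. Krt18 rose from GD17.5 to Day 0 (0.71 ± 0.19, adjusted p = 0.00239) and again to Day 1 (0.82 ± 0.19, adjusted p = 0.00150), fell to Day 10 (-0.73 ± 0.19, adjusted p = 0.00311) and Day 15 (-0.92 ± 0.19, adjusted p = 0.000973), and rose from Day 20 to Day 25 (0.80 ± 0.19, adjusted p = 0.00564). The last rise did not pass when mouse 2 of Day 20 was left out (0.66, adjusted p = 0.0592), or without the 13 libraries (0.66, adjusted p = 0.117). Without the 13, the rise to Day 0 (0.59, adjusted p = 0.192) and the fall to Day 10 (-0.31, adjusted p = 0.425) did not pass either, and the latter did not under upper quartile scaling (-0.27, adjusted p = 0.505).

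In the mice of GD17.5 Krt8 had 31.5, 48.6 and 43.5 FPKM, in those of Day 1 33.3, 45.3 and 44.0 FPKM, and in those of Day 5 93.6, 145 and 79.2 FPKM. At Day 20 the mice had 34.8, 35.5 and 39.5 FPKM, at Day 25 56.9, 93.6 and 81.1 FPKM and at Day 60 52.7, 64.0 and 72.1 FPKM. The mice of Day 5 were all above those of Day 60 and the mice of GD17.5, Day 0, Day 1 and Day 20 all below them. From Day 20 to Day 25 Krt8 rose by 1.03 ± 0.22 (adjusted p = 0.00224), with no overlap between the mice of both ages, and the rise passed when each mouse was left out in turn, under upper quartile scaling and without the 5 or 13 libraries. The rise from Day 3 to Day 5 (0.77 ± 0.22, adjusted p = 0.0465) lost its call when any 1 of 19 mice was left out, with the weakest value (0.53, adjusted p = 0.386) without mouse 2 of Day 5. It was 0.45 (adjusted p = 1) without the 13 libraries. Against Day 60, Krt8 differed at Day 5 by 0.71 ± 0.22 (adjusted p = 0.00595). This difference did not pass under upper quartile scaling (0.08, adjusted p = 0.806), without mouse 2 of Day 5 (0.46, adjusted p = 0.0775) or without the 13 libraries (0.22). The lower Krt8 levels of GD17.5, Day 1 and Day 20 each lost their call without mouse 3 of Day 60 or without mouse 1 of that age (adjusted p up to 0.103). That of Day 20 did so without mouse 2 of Day 60 too. The lower Krt18 level of Day 20 (-0.55 ± 0.19, adjusted p = 0.0434) did not pass without the 5 libraries (-0.54, adjusted p = 0.104), under upper quartile scaling (-0.49, adjusted p = 0.112), or when any 1 mouse of Day 60 or mouse 2 or 3 of Day 20 was left out.

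Between the early and the late ages the 2 genes differed in what could be called. Krt18 averaged 191 FPKM over the early ages and 126 over the late ones, a difference of 0.49 ± 0.08 (adjusted p = 1.3e-06), which reversed and was not called under upper quartile scaling (-0.09, adjusted p = 0.381). Krt8 averaged 58.6 and 58.9 FPKM, a difference of -0.08 ± 0.09 (adjusted p = 0.421). That of Krt8 was -0.65 (adjusted p = 1.2e-06) under upper quartile scaling and -0.19 (adjusted p = 0.0223) when FPKM sums were made equal. The direction for Krt18 and the call for Krt8 thus depended on the scaling, which also moved the median of all genes from 0.46 to 0.09.

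The pair was also compared within mice, where the FPKM ratio does not depend on the scaling between libraries and the tested log2 ratio does only through the 1 added to each level. The ratio of Krt18 to Krt8 FPKM was 2.23, 1.99 and 1.62 in the mice of GD17.5, 6.70, 4.69 and 5.64 at Day 1, and 2.18, 1.63 and 1.74 at Day 60. All mice of Day 1 were above all mice of GD17.5 and of Day 60. Over the 12 age means of log2((Krt18 + 1)/(Krt8 + 1)), the 5 early ages averaged 1.65 and the 7 late ones 1.08, a difference of 0.57 (two-sided exact permutation test, p = 0.0215, adjusted over 2 ratios 0.0429). The smallest p this test allows is 0.00126 (792 regroupings), and it treats ages as exchangeable although they follow one another. The early ages were not alike. GD17.5 averaged 0.93, within the range of the late ages (0.84 at Day 25 to 1.41 at Day 10), and Day 1 averaged 2.46. The adjusted p rose above 0.05 when any 1 of 4 mice was left out, to 0.0556 without mouse 1 of GD17.5, 0.0530 without mouse 1 of Day 0, 0.0631 without mouse 3 of Day 10 and 0.0505 without mouse 2 of Day 30. Without the 5 libraries the difference was 0.61 (adjusted p = 0.0227) and without the 13 0.58 (adjusted p = 0.0404).

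The ratio of Krt19 to Krt7 showed no such difference. It was 1.40, 1.62 and 2.60 in the mice of GD17.5, 2.56, 3.39 and 2.92 at Day 5, and 3.59, 1.70 and 2.38 at Day 60, so that the mice of GD17.5 and Day 60 overlapped. The early ages averaged 0.85 and the late ones 0.76 (log2 with 1 added to each level), a difference of 0.09 (two-sided exact permutation test, p = 0.562, adjusted 0.562). With 0.1 added in place of 1 the difference was -0.12 (adjusted p = 0.528), so that its direction depended on that constant.

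**Figure D4:**
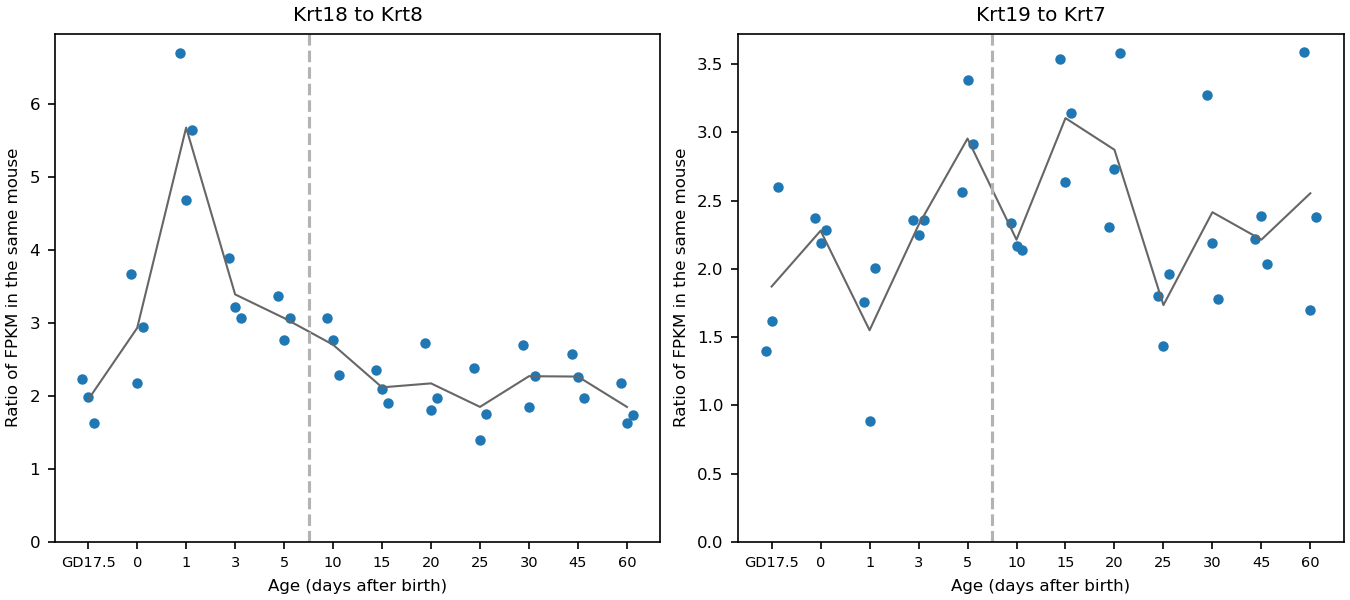
Ratio of Krt18 to Krt8 FPKM (left) and of Krt19 to Krt7 FPKM (right) within each mouse at the 12 ages, with 1 point per mouse and a line through the means of 3 mice. The dashed line divides GD17.5 to Day 5 from Days 10 to 60, and the Krt18 to Krt8 ratio is highest at Day 1, at 4.69 to 6.70.

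Epcam, the adhesion molecule of duct and progenitor cells, was low throughout, with a median of 0.484 FPKM over the 36 mice. It was 0.128, 0.927 and 1.15 FPKM at GD17.5, where both higher values belong to the libraries with gut genes, and 0.956, 3.25 and 1.01 FPKM at Day 1, where the highest belongs to the library with kidney genes. The mice of Day 5 had 1.15, 1.03 and 0.694 FPKM, those of Day 30 0.193, 0.217 and 0.102 FPKM, and those of Day 60 0.694, 0.233 and 0.217 FPKM. At Day 60 the highest value was again in a library set apart. All mice of Day 1 were above all mice of Day 60, and at GD17.5 and Day 60 the ranges overlapped. Epcam was higher than at Day 60 by 0.90 ± 0.21 (adjusted p = 0.000496) at Day 1 and by 0.51 ± 0.21 (adjusted p = 0.0355) at Day 5, and rose from Day 0 to Day 1 by 0.79 ± 0.21 (adjusted p = 0.00608). Day 1 was the only age through which Epcam passed the filter. Both Day 1 differences thus use the age that selected the gene and are not independent of that choice.

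Without the 5 libraries, the Epcam differences from Day 60 were 0.69 (adjusted p = 2.9e-05) at Day 1 and 0.67 (adjusted p = 1.1e-05) at Day 5. With these libraries kept, the Day 5 difference did not pass when mouse 1 or 2 of Day 5 or mouse 2 or 3 of Day 60 was left out (0.43 to 0.48, adjusted p up to 0.121), under upper quartile scaling (0.27, adjusted p = 0.263) or with no filter on low values (adjusted p = 0.0520). Without the 5 libraries the early minus late difference of Epcam went from 0.42 ± 0.09 (adjusted p = 8.7e-05) to 0.23, a reduction by over 1.5 times. The median of all genes was 0.46 in both fits, so that Epcam was above it in neither. Without mouse 2 the Day 1 mean was 0.982 FPKM and Epcam no longer passed the filter on low values. Its values without the 5 libraries were obtained because the genes tested were kept there as chosen over all 36 mice. An estimated 17.4 fragments lay behind the lowest value of Epcam (Day 30), which gives a counting error of about 24%.

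Sox4, a SOX factor of duct formation that several immature cell types express, declined from the first weeks onwards. The mice of GD17.5 had 1.42, 0.538 and 0.887 FPKM, those of Day 1 1.52, 1.83 and 1.01 FPKM and those of Day 10 1.29, 0.685 and 1.08 FPKM. The highest value of Day 1 belongs to the library with kidney genes. From Day 25 on the level was low, with 0.104, 0.146 and 0.0612 FPKM at Day 45 and 0.196, 0.180 and 0.270 FPKM at Day 60. Every mouse from GD17.5 to Day 20 was above every mouse of Day 60. Sox4 exceeded its Day 60 level at each of the 7 ages from GD17.5 to Day 15, by 0.36 ± 0.15 (adjusted p = 0.0327) at Day 0 to 1.00 ± 0.15 (adjusted p = 1.0e-06) at Day 1. Of these ages, Days 1, 5 and 10 were those through which Sox4 passed the filter, so that their differences are not independent of that choice. The early minus late difference of 0.54 ± 0.06 (adjusted p = 3.4e-09) was 0.59 without the 5 libraries, 0.65 without the 13 and 0.34 under upper quartile scaling, with calls in each case. With 0.1 added in place of 1 it was 1.37, and those of Krt7, Epcam and Notch2 were 1.38, 0.95 and 0.49 in place of 0.91, 0.42 and 0.25. With equal FPKM sums that of Sox4 was 0.82.

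The differences of Sox4 at Day 0 and Day 15 were the least certain of the 7. The first did not pass when either of 2 mice of Day 0 or either of 2 mice of Day 60 was left out, with adjusted p up to 0.0818. Nor did it pass under upper quartile scaling (0.29, adjusted p = 0.0695) or without the 13 libraries (0.40). The second did not pass when mouse 1 or 2 of Day 15 or any 1 mouse of Day 60 was left out, with adjusted p up to 0.160.

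Sox9, the SOX factor of the ductal plate, was between 0.0786 and 0.648 FPKM in all mice and was not tested in the main fit. It was lowest at GD17.5, with 0.0786, 0.0901 and 0.111 FPKM, and highest at Day 10, with 0.648, 0.217 and 0.325 FPKM. At Day 0 it was 0.154, 0.223 and 0.219 FPKM and at Day 60 0.134, 0.260 and 0.319 FPKM. The mice of GD17.5 were below those of every other age, which in the order of the 12 means was the only pair of neighbours without overlap. Unlike Krt19 or Sox4, its mean over the early ages (0.239 FPKM) was not above that over the late ones (0.263 FPKM). An estimated 27.2 fragments lay behind its lowest value.

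Spp1 had the lowest level at GD17.5, with 1.12, 1.01 and 0.647 FPKM, and rose at birth. At Day 0 the mice had 6.22, 3.45 and 2.75 FPKM and at Day 1 7.91, 15.98 and 7.37 FPKM. At Day 10 it was 13.1, 5.45 and 9.46 FPKM and at Day 60 3.73, 3.90 and 2.33 FPKM. All mice of GD17.5 were below, and all mice of Days 1, 3, 5 and 10 above, the mice of Day 60. Spp1 was lower than at Day 60 by a difference of -1.15 ± 0.34 (adjusted p = 0.00320) at GD17.5 and higher by 1.34 ± 0.34 (adjusted p = 0.00101) at Day 1 and 1.21 ± 0.34 (adjusted p = 0.00433) at Day 10. The steps to Day 0 (1.37 ± 0.34, adjusted p = 0.00140) and to Day 1 (1.13 ± 0.34, adjusted p = 0.0128) were the largest rises between neighbouring ages among the 8 genes.

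Over the early and late ages Spp1 averaged 6.00 and 4.72 FPKM, with a difference of 0.16 ± 0.14 (adjusted p = 0.287) that was -0.29 (adjusted p = 0.0631) under upper quartile scaling. Without the 5 libraries the difference at GD17.5 was -0.93 (adjusted p = 0.0987) and the step to Day 0 0.95 (adjusted p = 0.127), with 1 mouse left at GD17.5 that was assumed to vary like the others. Without mouse 2 of Day 1 the step to Day 1 was 0.81 (adjusted p = 0.0981), and without mouse 3 of Day 0 it was 0.93 (adjusted p = 0.0843).

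Notch2, the receptor, was between 0.279 and 2.68 FPKM and did not differ from Day 60 at any single age at an adjusted p under 0.05. The mice of GD17.5 had 1.91, 1.49 and 0.916 FPKM, those of Day 10 2.68, 0.907 and 0.935 FPKM, those of Day 30 0.279, 0.738 and 0.600 FPKM and those of Day 60 0.719, 0.878 and 0.766 FPKM. At Day 10 mouse 1 stood well above both others. Its early minus late difference of 0.25 ± 0.10 (adjusted p = 0.0188) was below the median of all genes by 0.21 and was -0.03 (adjusted p = 0.790) under upper quartile scaling, where it changed direction. With equal FPKM sums it was 0.28 (adjusted p = 0.0764).

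Within an age, Notch2 was highest in mouse 1 at 9 of the 12 ages, as 10.3% of all genes tested were at 9 or more ages. At 10 of the 12 ages the mouse with the highest Notch2 was also the one in which 895 genes of low level with transcripts of at least 6000 nt were highest by their median. The early minus late median of these genes was 0.42 (log2), beside 0.25 for Notch2. The part of this in the Notch2 values was not tested.

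Jag1, the ligand, was at or below 0.539 FPKM in every mouse and was not tested in the main fit. The mice of GD17.5 had 0.156, 0.143 and 0.105 FPKM, those of Day 1 0.354, 0.453 and 0.214 FPKM, those of Day 10 0.539, 0.152 and 0.213 FPKM, and those of Day 60 0.124, 0.139 and 0.102 FPKM. The mice of Day 1 were all above those of GD17.5 and of Day 60, while those of Day 10 overlapped none of Day 60 either. With no filter on low values, Jag1 differed from Day 60 at Day 1 (0.25 ± 0.08, adjusted p = 0.0135) and Sox9 at none of the 11 ages (GD17.5, -0.18 ± 0.08, adjusted p = 0.0537). The highest Jag1 value of Day 1, 0.453 FPKM, belongs to the library with kidney genes, and the difference without that library is not given. At 10 of the 12 ages Jag1 and Spp1 were highest in the same mouse. This was the largest number among all pairs of the 10 genes and was picked after the values were seen. Both genes were mostly highest in mouse 1 (at 8 and 7 ages), and a link between them was not tested.

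Some of the 8 genes had similar courses over the 12 age means of log2(FPKM + 1). Pearson's r was 0.91 for Krt7 with Krt19, 0.93 for Epcam with Sox4, 0.91 for Sox4 with Notch2 and 0.65 for Krt8 with Krt18. With Krt8, Krt7 had an r of -0.18, Krt19 -0.08 and Sox4 -0.05. These values describe 12 points that share libraries and the general decline of most genes. Outside the set, the genes most like Krt19 were Rasa4 (r = 0.99), Myadm (0.98) and Trim47 (0.98), and those most like Krt7 were B3gnt8 (0.98), Tbxa2r (0.97) and Elovl7 (0.97). Epcam was closest to Zdhhc20 (0.98), Gpatch2 (0.97) and Rdh13 (0.97), and Sox4 to Gucy1b3 (0.99), Lphn1 (0.98) and Phactr2 (0.98). For Notch2 these were Mobkl2c (0.98), Taok3 (0.97) and 6820431F20Rik (0.97), and for Spp1 Adam23 (0.97), Fam20a (0.97) and Brp44l (0.96). Krt18 was closest to Pctp (0.92), a phosphatidylcholine transfer protein, Akr1a4 (0.92) and Inhbe (0.91), and Krt8 to Kptn (0.88), P4hb (0.87), a protein disulfide isomerase of the endoplasmic reticulum, and Dynlrb1 (0.86).

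Other genes of the duct epithelium and of the pathways around the 10 genes were described in the same early minus late comparison, beside the 69.6% higher and 15.8% lower of all genes and their median of 0.46. Of 30 other biliary genes, 20 were tested, 14 were higher early, 3 were lower (Onecut1, Foxa1 and Slc10a2) and 3 were not called, with a median of 0.68. The largest differences were those of Cd24a (5.88 ± 0.11), a surface glycoprotein that blood precursors and dividing cells carry too, Ggt1 (3.58 ± 0.16), a gamma-glutamyltransferase, and Anxa2 (2.19 ± 0.07). Cd24a averaged 823 ± 54.4 FPKM before birth and 1.65 ± 0.979 FPKM in the oldest mice. Ggt1 was highest at Day 0, with 42.9 ± 5.11 FPKM. Under upper quartile scaling 11 were higher and 6 lower, and the cadherin Cdh1 was among those that reversed (0.27 to -0.27, called both times). The counts were 14 and 2 without the 5 libraries and 13 and 1 without the 13.

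Of 30 other genes of the Notch pathway, 21 were tested, 16 were higher early, 3 were lower (Rfng, Psen2 and Aph1a) and 2 were not called, with a median of 0.34. Dlk1, a non-canonical ligand of hepatoblasts, had the largest difference (4.34 ± 0.06) with 65.6 ± 2.33 FPKM before birth, and was listed at 0 in at least one of the mice of Day 60. Adam10, which cleaves the receptor (1.51 ± 0.16), and Lfng, which modifies it with sugars (1.38 ± 0.06), came next. Leaving out the 5 or the 13 libraries gave 14 higher and 3 lower. With upper quartile scaling the counts were 7 higher and 5 lower, with a median of -0.03, so that the direction of the list depended on the scaling. Among those that changed sign were the target Hes1 (0.31 to -0.17) and the ligand Dll4 (0.28 to -0.03).

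Among 16 other keratins 5 were tested, and Krt20 (2.29 ± 0.06) and Krt23 (1.04 ± 0.09) were higher early while Krt4, Krt13 and Krt15 were not called. Before birth Krt20 was at 10.4 ± 0.664 FPKM, and at Day 60 no mouse was above 0.125 FPKM. Krt23 was highest at Day 3, with a mean of 13.9 FPKM. The counts of keratins and SOX factors were the same without the 5 and the 13 libraries, while the keratin median went from 0.32 to 0.03 in both cases. The 4 other SOX factors tested of 11 were all higher early, among them Sox12 (1.5 ± 0.06), Sox6 (1.38 ± 0.11) and Sox13 (0.72 ± 0.06), and 3 were under upper quartile scaling. All 7 tested of 13 osteopontin receptors and relatives were higher early, with Itgb3 (2.67 ± 0.07), a platelet integrin, first, followed by Cd44 (1.42 ± 0.08) and Itga5 (1.22 ± 0.08). They numbered 7 without the 5 libraries and 6 without the 13, and under upper quartile scaling 4 were higher and Itgb5 was lower (0.25 to -0.30).

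Of 18 Hippo pathway genes and targets, 14 were tested, 10 were higher early and 4 (Yap1, Wwtr1, Tead3 and Lats1) were not called, with a median of 0.42. The largest differences were those of Tead2 (2.38 ± 0.09), a DNA-binding partner of Yap1, Stk4 (1.27 ± 0.11) and Axl (1.2 ± 0.10). Upper quartile scaling gave 5 higher and 4 lower, and leaving out the 5 or 13 libraries gave 10 and 0. Of 15 other hepatoblast and progenitor genes 12 were tested, with 10 higher, 1 lower (Tbx3) and 1 not called (Prox1), and 8 and 3 under upper quartile scaling. These counts were 10 and 1 without the 5 libraries and 9 and 1 without the 13. Afp, the fetal serum protein (8.56 ± 0.24), had 3601 ± 180 FPKM before birth and 11497 ± 2930 FPKM on Day 0, and 0.906 ± 0.592 FPKM in the oldest mice. Over the same ages the highest age mean was 10.2 times the lowest for Epcam (5.77 times without mouse 2 of Day 1), 6.71 times for Krt7 and 5.49 times for Krt19.

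**Figure D5:**
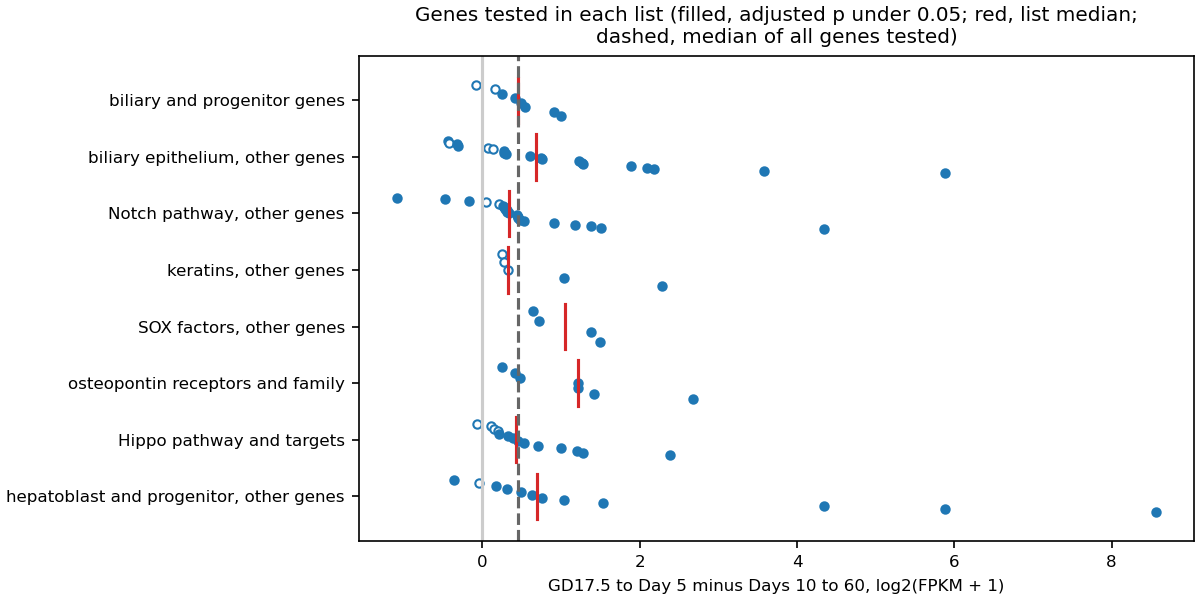
Early (GD17.5 to Day 5) minus late (Days 10 to 60) difference in log2(FPKM + 1) for every tested gene of the 10 biliary and progenitor genes and of 7 other lists, with filled points for an adjusted p under 0.05. Red bars are list medians (0.45 for the biliary and progenitor genes) and the dashed line is the median of all 11149 genes (0.46).

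Markers of other cell types moved with age as well. All 9 erythroid, 8 granulocyte, 6 megakaryocyte, 7 tested B progenitor and 8 cycling cell markers were higher early, with medians of 4.44, 6.53, 3.39, 1.78 and 2.63 (log2). Of 8 hepatocyte markers none was higher and 6 were lower, with a median of -0.84. The 10 markers of stellate cells and portal mesenchyme, the latter a site of Jag1 expression, had 9 higher and 1 lower (4 and 1 under upper quartile scaling). The 8 endothelial markers had 6 and 1 (3 and 2), the 8 macrophage and Kupffer markers 6 and 2 (4 and 2), and the 4 tested mesothelium markers 4 and 0 (3 and 0). Of these marker counts, leaving out the 5 or 13 libraries changed that of stellate and portal mesenchyme alone, to 8 and 0 without the 13. Mesothelial markers, which belong to a Krt7, Krt8, Krt18 and Krt19 expressing epithelium, summed to 16.3 FPKM in mouse 1 of Day 5 and to 2.35 and 2.77 FPKM in the others, while Krt19 was at 7.42, 7.75 and 4.24 FPKM in these mice. The 8 pancreatic acinar markers had a median early minus late difference of 1.26 over all mice and of 1.77 without the 13 libraries. The part of these cells in the values of the 10 genes was not tested.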

How the data were processed

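RNA of 36 livers was sequenced by the authors. Per the submitters' processing notes and the study's methods, reads were placed on NCBI37/mm9 by TopHat 1.2.0, and Cufflinks 1.0.3 estimated abundance, with transcripts compared with Ensembl annotation. The authors deposited 1 FPKM value per gene symbol and mouse, without counts, and name no scaling between libraries beyond that to mapped reads. Summed FPKM was from 353712 to 450597 per library. Steps between low values gave the relative depth, 0.888 to 1.12. Of such values (1581 genes) 78.5% were whole fragments to a tolerance of 0.1, too few for a count test. Estimated fragment numbers cover counting error alone.

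From there, log2(FPKM + 1) was fitted with limma 3.58.1 in R 4.3.3, with 1 mean per age over 36 mice and moderated variances that follow mean expression, for genes whose mean reached 1 FPKM at some age. Adjustment was by Benjamini and Hochberg over all genes within a comparison, and over genes and the 11 comparisons together for a difference in at least one age. The threshold was 0.05. Fold changes on this scale understate changes of low genes. Adding 1 FPKM and the filter affect Epcam, Sox4, Sox9 and Jag1 most. The lists' counts are descriptions. The fit was tested on simulated data. Ratios were compared with exact permutation tests in Python 3.11.15 (scipy 1.17.1).

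The 10 genes and the lists were chosen with earlier results of these data known. From each pathway list, up to 3 genes with the largest early minus late difference among those called are named, and for each tested gene of the set the 3 most alike. Genes named beyond that (those lower or not called in a list, those that reversed, and markers) were chosen after their values were seen, as were the lists of kidney, squamous, islet and gut genes and the 2 sets of libraries left out, in whose fits the genes tested stayed as chosen over all 36 mice. Symbols were matched to GENCODE M1. The mapping of the promoter table is GRCm38.p6. Some genes of the lists are not reported here by name.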

Additional observations from a re-analysis of the deposited data

How the results depend on the processing

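Leaving out 1 mouse at a time (36 fits), between 6 and 7 of the 8 genes differed from Day 60 at some age and 5 to 6 were higher at GD17.5 to Day 5, with the lower values without mouse 2 of Day 1, whose removal takes Epcam below the filter. The number lower was 0 to 0. Of the 11058 to 11229 genes tested in these fits, 9584 to 10296 differed, 7623 to 7880 were higher and 1700 to 1848 were lower. Differences from Day 60 numbered 26 (without mouse 3 of Day 60) to 36, against 35, and steps between neighbouring ages 10 to 14, against 12. The Krt18 to Krt8 difference was 0.53 to 0.60 and the Krt19 to Krt7 difference 0.04 to 0.14. Of the 53 single calls, 38 held with every mouse left out and 40 under upper quartile scaling. The counts of single calls and steps in this section have no share of all genes beside them. They are therefore not shown to be particular to the 8 genes. A filter at 5 FPKM tested 4 of the genes and so gave 4 that differed, 20 differences from Day 60 and 2 that were higher early. Of the 6853 genes tested there, 6424 differed and 4621 were higher early. Upper quartile scaling and scaling to a common sum each gave 1 gene lower early (Krt8), and upper quartile scaling reversed the early minus late differences of Krt18 (-0.086), Spp1 (-0.29) and Notch2 (-0.028). Without the 13 libraries, which leave 1 mouse at GD17.5, Day 0 and Day 5, the steps numbered 5, of which 4 were among the 12. A pseudocount of 0.1 reversed the Krt19 to Krt7 difference (-0.12). Dunnett's comparison gave 25 differences from Day 60. Beyond the fewer genes or mice, the causes were not tested. With the replicate number as a block the counts were 7, 38, 14, 6 and 0, and the ratio differences 0.57 and 0.09. In that fit 10369 of all 11149 genes differed, 7825 were higher early and 1789 lower. The numbers were not taken to pair the mice, since not every correlation was over 0.1. That rule does not show that the number is without effect. Deviations of mice with the same number were more alike on average, with a mean correlation of 0.0978 (lowest -0.680, highest 0.829) against -0.0477 for other numbers. Of 36 mice, 19 were closest to their own number, a hint from the data and not from the design. An effect of the number on single genes was not tested. Depth limits Epcam, Sox9, Sox4 and Jag1 most, whose lowest values rest on an estimated 17.4, 27.2, 20.0 and 24.3 fragments.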

Other observations

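The ratio of Krt18 to Krt8 was highest in the mouse numbered 1 at 12 of 12 ages. Mice of different ages that share a number are different animals, and the labels do not say what the number marks. Krt8 was lowest in mouse 1 at 9 of the 12 ages, as were 9.06% of the genes tested at 9 or more ages, and Krt18 was highest in mouse 1 at 4. Among 10756 tested genes above 0 in every mouse, the ratio to Krt8 was highest in mouse 1 at every age for 6 (0.0558%), of which Krt18 is one. The ratio of Krt19 to Krt7 was highest in mouse 1 at 6 ages, in mouse 2 at 2 and in mouse 3 at 4. This pattern was seen in the data and has no test here, and the age comparison of the ratio rests on means over the 3 numbers.

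Itgb3, which codes for an integrin subunit that can bind osteopontin (Spp1), was 11.7 ± 3.54 FPKM at GD17.5, where Spp1 was at 0.924 ± 0.246 FPKM, and 0.381 ± 0.107 FPKM at Day 60, where Spp1 was at 3.32 ± 0.859 FPKM. The 6 megakaryocyte markers, cells that carry this integrin, summed to 256 ± 21.1 and 2.56 ± 0.0869 FPKM at these ages, and their part in the Itgb3 values was not tested.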
